A study of Bos taurus with 20 samples.

Results

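Untreated infection of the udder with Escherichia coli was compared with the uninfected gland of the same cow at 48 h after bacterial challenge. The comparison held 6 of the 20 glands of the series, namely the challenged not treated (CNT) gland and the not challenged (NC) gland of each of 3 cows, named cow8605, cow8452 and cow8507 in the sample titles. These glands were chosen by the group, cow and time point of their labels, and no measured value entered the choice. All animals were mid lactating Holstein Friesian cows. CNT glands had received 100 colony forming units (cfu) of E. coli and no drug. CF glands had received the same challenge and repeated doses of 300 mg of cefapirin, a cephalosporin antibiotic, and CFPD glands had received the same doses of cefapirin, each together with 20 mg of prednisolone, a glucocorticoid. These treated rear glands of the same cows entered the estimate of the spread between arrays, the filter on low values and the choice of a probe set for each gene, and are not compared here. NC glands had received neither bacteria nor drug, but each shared its udder and circulation with 3 challenged glands. The CNT gland was the left front and the NC gland the right front gland in every cow, so the challenge and the position in the udder cannot be told apart. The labels place the samples in the cisternal region of the gland and the methods of the study in the mid parenchyma.

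RNA of each gland was hybridised to 1 Affymetrix Bovine Genome Array, and the values are log2 signals, on which a difference of 1 is a 2-fold difference in signal. Unless the cows are named, values are given in the order of cow8605, cow8452 and cow8507. The tissue carried the mark of lactating epithelium in every gland. PAEP, which encodes the whey protein beta-lactoglobulin, was at 15.58, 15.51 and 15.56 in the CNT glands, against 15.55, 15.51 and 15.53 in the NC glands, at the upper end of the signal scale (log2 fold change 0.02, and -0.039 when the arrays were centred on their medians). Because whole tissue was measured, more cells of a type and more RNA per cell cannot be told apart in any of the values below.

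E. coli reaches the gland through the teat canal and multiplies in milk. Its lipopolysaccharide is carried by the LPS-binding protein LBP to the receptor complex of CD14 and TLR4, from which NF-kB and interferon signalling start. Epithelial cells and resident macrophages then release chemokines that draw neutrophils from the blood into the alveoli, and the gland itself makes acute phase proteins, complement factors and antimicrobial peptides. Milk fat is made in the same epithelial cells from circulating fatty acids, which lipoprotein lipase releases, and from fatty acids synthesised in the cell. A fall in milk yield and fat output is a known feature of coliform mastitis.

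Of 13000 probe sets tested with limma, 672 were called at an adjusted p under 0.05 and a change of at least 2-fold, which is 5.17% of those tested. Of these, 503 (3.87%) were higher and 169 (1.30%) were lower in the CNT glands, so that 74.9% of the calls were rises. The split depended on the scaling, with 435 higher and 199 lower (68.6% rises) when the arrays were centred on their medians and 338 higher and 226 lower (59.9% rises) when they were quantile normalized again. In terms of annotated genes, 291 of the 9155 on the array were called higher (3.18%, or 4.32% of the genes tested) and 81 lower (0.885%, or 1.20% of the genes tested), each gene being read from its probe set with the highest mean. Every called probe set had the same sign in all 3 cows, which the call itself favours. Of all genes on the array, 33.2% were higher and 17.1% lower in all 3 cows. For 619 of the called probe sets the CNT and NC arrays did not overlap, against 30.6% of all tested probe sets (21.6% with CNT above NC and 9.07% with CNT below NC). The number of calls depended on single animals. It was 228 without cow8605 (187 higher and 41 lower), 353 without the NC gland of cow8452 (276 higher and 77 lower) and 490 without cow8452 (403 higher and 87 lower), and it was 346 when the cow was not a term of the fit (279 higher and 67 lower). Across the 9 fits that left out a gland or a cow, 157 of the 672 calls held in every fit (131 higher and 26 lower).

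**Figure D1:**
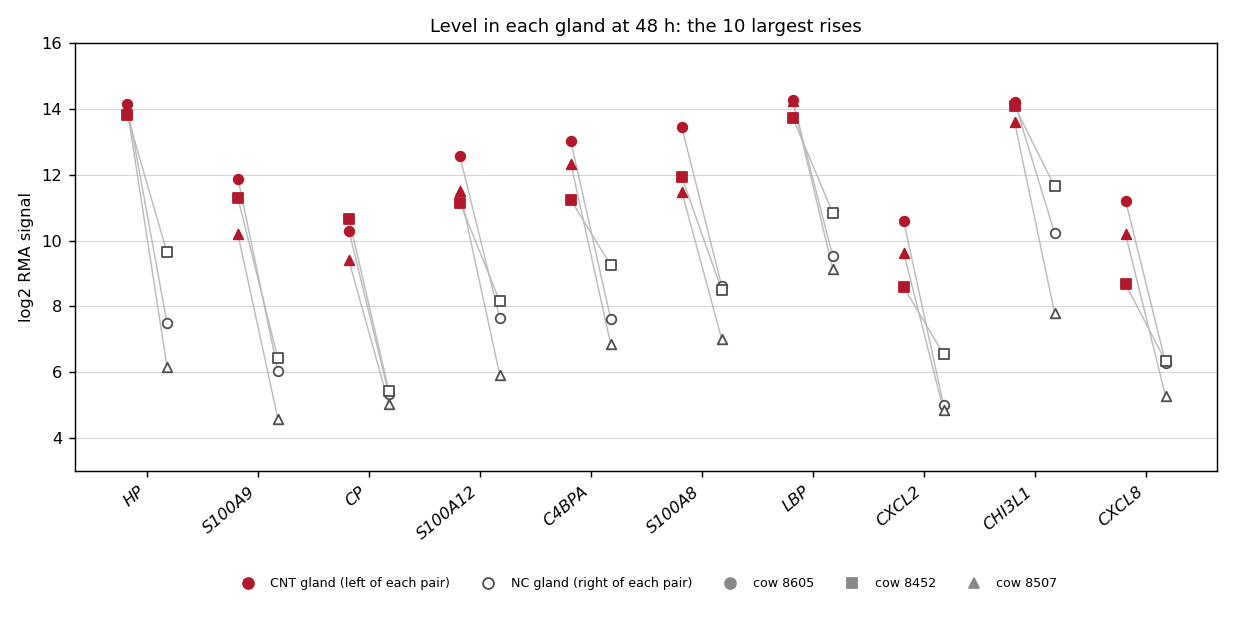
Level (log2 RMA signal, vertical axis) of the 10 genes with the largest called rises in each gland at 48 h, with the CNT gland (filled) left of the NC gland (open) and a line joining the glands of a cow. All CNT glands lie above all NC glands for each of the 10 genes, and the NC gland of cow8452 (square) is the highest NC gland for 9 of them.

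The largest rises were those of genes of neutrophils, acute phase proteins and chemokines. For each of the 10 genes shown in the plot of rises the 3 CNT glands lay above the 3 NC glands, as they did for 21.6% of all tested probe sets. S100A8 and S100A9, which together form the antimicrobial neutrophil protein calprotectin, and their relative S100A12 rose in every cow. S100A8 was at 13.44, 11.92 and 11.48 in the CNT glands, against 8.62, 8.50 and 7.01 in the NC glands (log2 fold change 4.24 ± 0.29 SE, adjusted p = 0.000272). S100A9 was at 11.87, 11.28 and 10.19 in the CNT glands, against 6.04, 6.42 and 4.59 in the NC glands (log2 fold change 5.43 ± 0.69 SE, adjusted p = 0.00209). The animal cow8605 had the highest CNT value of both genes. A further S100A9 probe set with a higher mean level gave a log2 fold change of 2.61 ± 0.24 (SE). S100A12 was at 12.56, 11.15 and 11.50 in the CNT glands, against 7.64, 8.15 and 5.92 in the NC glands (log2 fold change 4.50 ± 0.58 SE, adjusted p = 0.00214). CXCR1, the neutrophil receptor for CXCL8, followed the same order of groups. It was at 10.59, 8.51 and 9.31 in the CNT glands, against 5.47, 6.08 and 5.54 in the NC glands (log2 fold change 3.77 ± 0.45 SE, adjusted p = 0.0017). These genes kept their calls in all 9 leave-out fits.

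Of the 12 neutrophil markers on the array, 5 were tested and all 5 were called higher, the fifth being TREM1, an activating receptor of myeloid cells, with a log2 fold change of 2.29. CXCR1 and TREM1 passed the filter on low values through the CNT arrays alone, so that they had to differ, and with a filter on the mean level 3 of the 5 were tested and called. The leave-out fits kept the filter on low values, so that CXCR1 and TREM1 had to differ in them too. The 7 other members were not tested, among them MPO (-0.52) and ELANE (-0.45), which encode enzymes of neutrophil granules, and MMP9 (0.19), a gelatinase. The median log2 fold change of all 12 members was 0.87, against 0.11 for all genes on the array. The summed signal of the 12 members on the linear scale was between 8427 and 22138 in the CNT glands, against 901 to 1558 in the NC glands. These ranges did not touch, but on the linear scale the brightest members weigh most, as in all summed signals below. Here these were S100A8, S100A9 and S100A12, named above for their rises, so that the sum adds no separate support.

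Genes expressed by leukocytes in general rose as well. Of the 18 such genes on the array, 10 of the 17 tested were called higher and none lower, with a median log2 fold change of 1.10. SRGN, the proteoglycan of leukocyte granules, was at 12.13, 11.29 and 11.55 in the CNT glands, against 9.33, 10.27 and 8.24 in the NC glands (log2 fold change 2.38 ± 0.34 SE, adjusted p = 0.00317, and 0.0722 without cow8605). ALOX5AP, which presents arachidonic acid to the enzyme that starts leukotriene synthesis, was at 9.25, 9.31 and 8.77 in the CNT glands, against 7.20, 7.76 and 6.91 in the NC glands (log2 fold change 1.82 ± 0.15 SE, adjusted p = 0.00045). Its differences were alike in the 3 cows. TYROBP, an adaptor of myeloid receptors (1.93), CD53, a tetraspanin (1.57), and ITGB2, the common beta chain of leukocyte integrins (1.48), were also called, while PTPRC, which encodes CD45, had a log2 fold change of 0.62 and was not. The calls of ALOX5AP, CD53 and HCLS1 held in all leave-out fits and 4 of the 10 held without cow8605. The summed signal of the list was between 14548 and 22212 in the CNT glands, against 6624 to 11168 in the NC glands.

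Markers of monocytes and macrophages rose in part. Of the 12 on the array, 6 of the 11 tested were called higher and 1 lower, with a median of 1.02. CD68, a lysosomal protein of macrophages, was at 11.31, 10.54 and 10.20 in the CNT glands, against 8.24, 8.27 and 6.95 in the NC glands (log2 fold change 2.86 ± 0.50 SE, adjusted p = 0.00687, and 0.0669 without cow8605). VSIG4, a complement receptor of tissue macrophages (1.77), C1QA (1.34), the Fc receptor gene FCGR1A (1.23) and CSF1R, the receptor for the macrophage growth factor CSF1 (1.19), were called too. MSR1, a scavenger receptor, was called lower (-1.51) by its brighter probe set, while another of its probe sets had a log2 fold change of 0.61, so its direction depends on the probe set. CD14, the co-receptor for lipopolysaccharide, had a log2 fold change of 0.10 and was not called. None of the 6 rises was called without cow8605, 2 were without cow8452, 3 were without the NC gland of cow8452, and 3 were without the cow term. The summed signal was between 13854 and 14465 in the CNT glands, against 8210 to 10185 in the NC glands.

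No marker of lymphocytes was called, beside 4.32% called higher and 1.20% called lower among all genes tested. At these shares a list with so few tested members may hold no call. The same shares stand beside the lists without a call below. The T cell and NK cell list had 14 tested members of 22 on the array and a median of 0.04, and the B cell and plasma cell list had 3 of 7 and a median of -0.28. CD3E, a chain of the T cell receptor complex, was at 8.23, 9.09 and 8.29 in the CNT glands, against 8.54, 9.45 and 8.51 in the NC glands. IGHM, the heavy chain of IgM, was at 11.77, 10.72 and 9.99 in the CNT glands, against 11.52, 11.23 and 10.92 in the NC glands. The groups overlapped for both genes, although CD3E differed by -0.30, -0.36 and -0.23 within the cows. For ZAP70, another T cell and NK cell marker, all CNT glands lay below all NC glands. It was at 9.20, 9.61 and 9.28, against 10.49, 10.17 and 9.87 (log2 fold change -0.81, adjusted p = 0.107). Of the 22 T cell and NK cell markers, 4 were higher and 4 lower in all 3 cows. The summed signals of both lists overlapped between the groups, with 3851 to 7709 in the CNT glands, against 4453 to 6684 in the NC glands for the T cell and NK cell list, and 2962 to 6174 in the CNT glands, against 3944 to 5976 in the NC glands for the B cell list. The part that a larger share of neutrophils and other leukocytes in the tissue has in the changes described below was not tested.

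**Figure D2:**
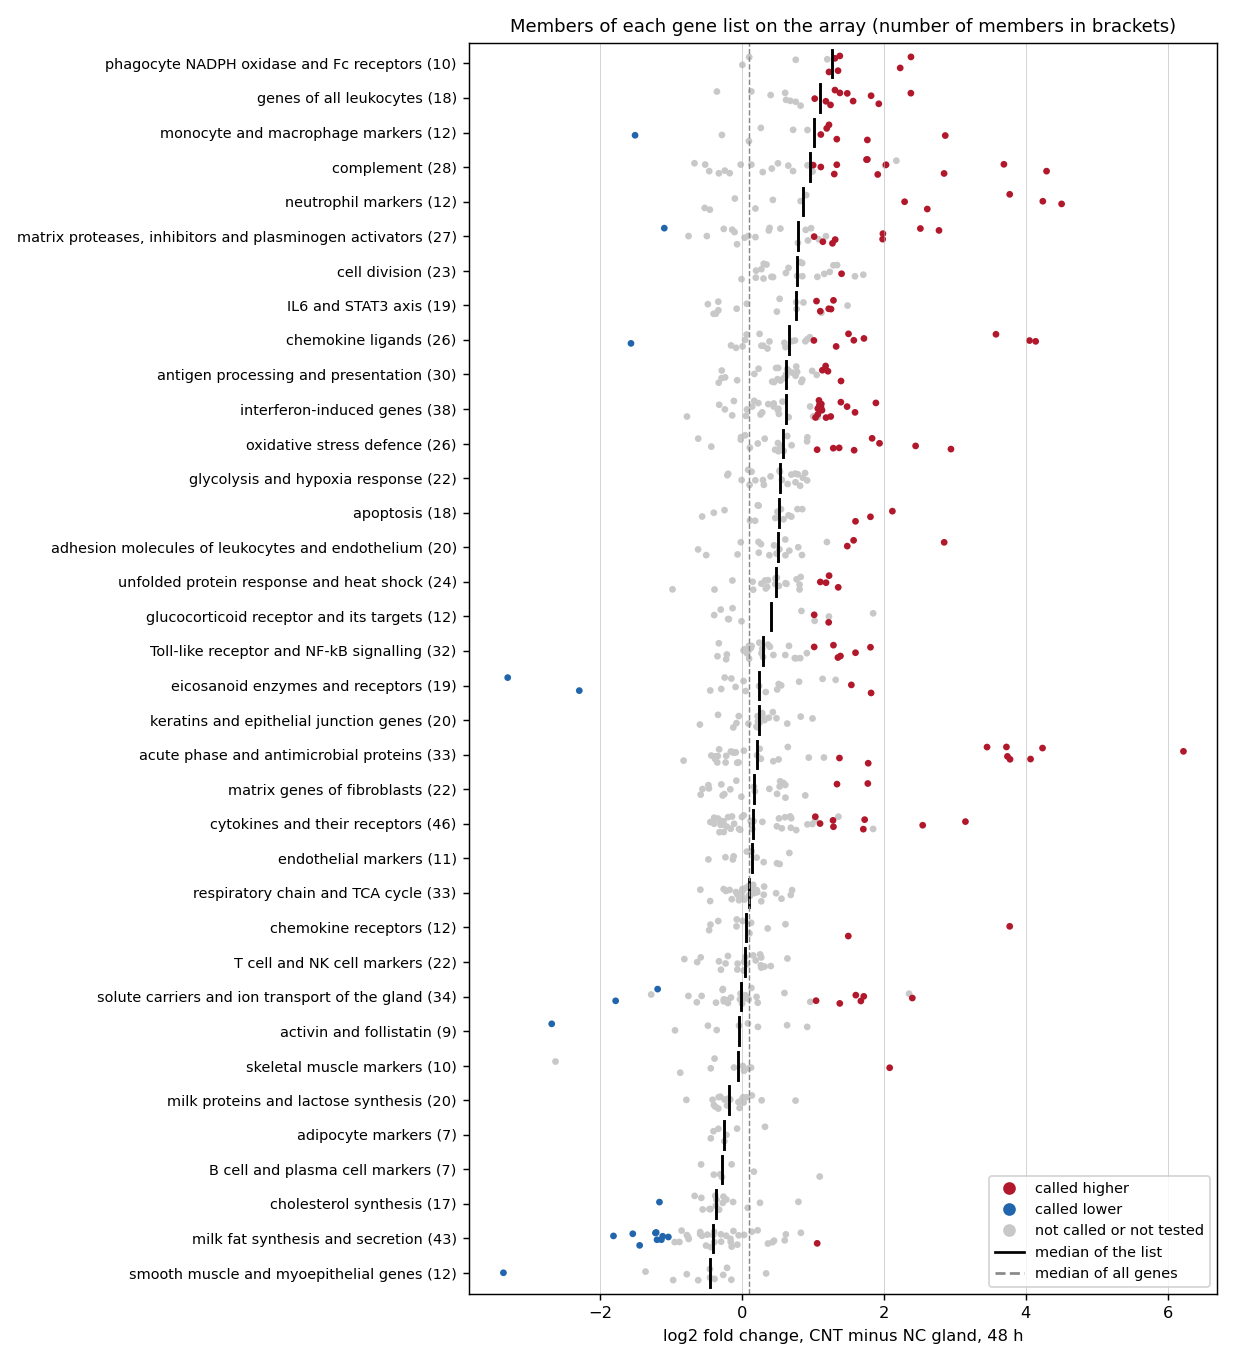
Log2 fold change (CNT minus NC gland, horizontal axis) of every member on the array for each of the 36 gene lists, in order of the list median (black bar), with called members in red (higher) and blue (lower) and the rest in grey. The dashed line is the median of all genes on the array (0.11), and the medians run between 1.27 for phagocyte oxidase and Fc receptor genes and -0.45 for smooth muscle and myoepithelial genes.

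Acute phase and antimicrobial proteins held the largest of the 503 rises. HP, which encodes the haemoglobin-binding protein haptoglobin, was at 14.13, 13.82 and 14.02 in the CNT glands, against 7.50, 9.64 and 6.18 in the NC glands (log2 fold change 6.22 ± 0.94 SE, adjusted p = 0.00389). The CNT glands were close together, while the NC gland of cow8452 was well above the other NC glands. LBP was at 14.26, 13.73 and 14.23 in the CNT glands, against 9.53, 10.84 and 9.15 in the NC glands (log2 fold change 4.23 ± 0.56 SE, adjusted p = 0.00228). CHI3L1, a chitinase-like glycoprotein of neutrophils and macrophages, was at 14.20, 14.07 and 13.59 in the CNT glands, against 10.22, 11.64 and 7.80 in the NC glands (log2 fold change 4.07 ± 0.89 SE, adjusted p = 0.0174). The mammary serum amyloid gene SAA3 showed the widest range of differences over the cows among called probe sets with 1 gene symbol. It was at 15.21, 15.20 and 15.10 in the CNT glands, close to the top of the scale, against 12.26, 13.14 and 8.78 in the NC glands (log2 fold change 3.78 ± 0.97 SE, adjusted p = 0.0297), so the size of its difference followed the NC level of each cow. CP, the copper-carrying ferroxidase ceruloplasmin, was at 10.29, 10.66 and 9.40 in the CNT glands, against 5.34, 5.44 and 5.04 in the NC glands (log2 fold change 4.84 ± 0.82 SE, adjusted p = 0.00624), and its other probe sets gave 3.74 and 3.69. The calls of HP and LBP held in all 9 leave-out fits, whereas the adjusted p of CP by the probe set with the largest change was 0.0553 and that of CHI3L1 0.0802 without cow8605, that of CHI3L1 0.0581 without the NC gland of cow8507, and the call of SAA3 was lost in 7 of the 9 fits. Without the cow term the adjusted p was 0.0544 for CHI3L1 and 0.0692 for SAA3.

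The beta-defensins of the list split. LAP, the lingual antimicrobial peptide, was at 14.25, 10.84 and 11.35 in the CNT glands, against 10.38, 8.11 and 6.77 in the NC glands (log2 fold change 3.73 ± 0.47 SE, adjusted p = 0.00203, and 0.102 without the cow term). Both glands of cow8605 were the highest of their group, and its NC gland was close to the CNT gland of cow8452. DEFB4A was at 10.12, 10.97 and 10.07 in the CNT glands, against 7.22, 7.35 and 6.23 in the NC glands (log2 fold change 3.45 ± 0.64 SE, adjusted p = 0.00878), and the enteric defensin EBD had a log2 fold change of 1.78. TAP, the tracheal antimicrobial peptide, was not tested and had a difference of -0.23. The 7 cathelicidin genes on the array were not tested either, and their differences lay between -0.82 and -0.09. LTF, the iron-binding milk protein lactoferrin, was at 15.11, 15.04 and 15.11 in the CNT glands, against 14.53, 14.67 and 14.73 in the NC glands by its brighter probe set, which is near the top of the scale and was not called (log2 fold change 0.44), while a dimmer LTF probe set was called at 2.59 ± 0.46 (SE). In all, 9 of the 16 tested and 33 on the array were called higher and none lower, the median over the 33 was 0.21, and 18 of the 33 differences were positive. The calls of HP, LAP, LBP and, by its brightest probe set, CP held in all leave-out fits, and no other call of the list held without cow8605. Without cow8452 or the NC gland of cow8507 5 of the 9 held, and 4 held without the cow term.

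Among chemokine ligands, CXCL8, the main neutrophil attractant, was at 11.21, 8.67 and 10.19 in the CNT glands, against 6.30, 6.34 and 5.28 in the NC glands (log2 fold change 4.05 ± 0.64 SE, adjusted p = 0.00501, and 0.068 without cow8605). CXCL2, which shares the receptor CXCR2 with CXCL8, was at 10.59, 8.59 and 9.63 in the CNT glands, against 5.00, 6.55 and 4.84 in the NC glands (log2 fold change 4.14 ± 0.74 SE, adjusted p = 0.00759, and 0.0681 without cow8605 and 0.0673 without cow8507). The animal cow8452 had the lowest CNT level of both genes, and its difference was the smallest for each. CXCL5, a further neutrophil attractant, which passed the filter through the CNT arrays alone, was at 8.93, 9.30 and 8.72 in the CNT glands, against 5.30, 6.82 and 4.09 in the NC glands (log2 fold change 3.58 ± 0.35 SE, adjusted p = 0.000737). CCL2, an attractant of monocytes, moved by a smaller and steadier amount. It was at 10.95, 11.95 and 10.54 in the CNT glands, against 9.05, 10.41 and 8.82 in the NC glands (log2 fold change 1.72 ± 0.21 SE, adjusted p = 0.0017), and both glands of cow8452 were the highest of their group. Its adjusted p was 0.126 without the cow term.

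CCL8, a further attractant of monocytes (1.58), CXCL10, an attractant of activated T cells (1.5), GRO1, a growth-related neutrophil attractant (1.33), and CCL4, an attractant of monocytes and lymphocytes (1.01), were also called. CXCL10 was at 8.44, 10.04 and 8.59 in the CNT glands, against 8.26, 8.05 and 6.26 in the NC glands, so that cow8605 differed by less than the other cows. Its call was lost in 6 of the 9 leave-out fits and, with an adjusted p of 0.131, without the cow term. CCL26, an attractant of eosinophils, was the only chemokine called lower. It was at 8.88, 6.84 and 8.02 in the CNT glands, against 10.19, 9.79 and 8.45 in the NC glands (log2 fold change -1.56 ± 0.42 SE, adjusted p = 0.0341), and this call was lost in 6 of the 9 leave-out fits. The call of CCL26 was also lost without the cow term, with the cow as a random term and on the CNT and NC arrays alone. CCL3 depended on its probe set, with -0.08 by the brighter and 2.70 by the dimmer one. Of 26 ligands on the array, 21 were tested, 8 were called higher and 1 lower, and the median over the 26 was 0.66. Of the 8 rises, CCL2 and CXCL5 held in all leave-out fits, but CXCL5 had to differ there, since these fits kept the same filter. Of the 8, 3 held without cow8605 and 5 without cow8507, while 4 held without the cow term and 5 with a filter on the mean level. Among chemokine receptors, CXCR1 and CXCR4, the receptor for CXCL12 (1.5, adjusted p = 0.0021, and 0.0508 without cow8605), were called of the 7 tested and 12 on the array.

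Among cytokines and their receptors, the called members were mostly receptors and a receptor antagonist. IL1RN, which encodes the antagonist of the interleukin 1 receptor, was at 10.69, 10.32 and 10.32 in the CNT glands, against 7.43, 8.11 and 6.34 in the NC glands (log2 fold change 3.15 ± 0.40 SE, adjusted p = 0.00204). IL1RAP, the accessory chain of that receptor, was at 10.08, 10.38 and 10.28 in the CNT glands, against 7.48, 8.04 and 7.59 in the NC glands (log2 fold change 2.55 ± 0.28 SE, adjusted p = 0.0011). The CNT glands of the 3 cows were close together for both genes, and both calls held in all leave-out fits. IL18, an activator of interferon gamma production (1.73), IL13RA1 (1.71), the oncostatin M receptor gene OSMR (1.29), IL10RA (1.28, which passed the filter through the CNT arrays alone), IL10RB (1.10) and the type I interferon receptor gene IFNAR2 (1.03) were the other called members. IL1B, the main secreted form of interleukin 1, was at 8.13, 6.90 and 7.33 in the CNT glands, against 6.44, 7.08 and 6.55 in the NC glands, and was not tested because it lay above the array median on too few arrays. TNF (0.56), IL6 (0.87) and IL12A (-0.21) were not tested for the same reason. IL1R2, the decoy receptor for interleukin 1, was at 7.67, 7.01 and 6.84 in the CNT glands, against 5.17, 5.37 and 5.44 in the NC glands, and was called only when no filter was applied. In all, 8 of 25 tested and 46 on the array were called higher and none lower, with a median of 0.16 over the 46. Without cow8605 only IL1RN and IL1RAP were still called, 5 of the 8 were without cow8507 or the NC gland of cow8452, and 4 of the 8 were without the cow term.

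Of 32 Toll-like receptor and NF-kB genes on the array, 6 of the 29 tested were called higher and none lower, beside 4.32% higher among all genes tested. The median over the 32 was 0.29, and 28 of the 32 differences were positive. PYCARD, the adaptor of inflammasomes, passed the filter through the CNT arrays alone, so that it had to differ. It was at 7.69, 9.03 and 7.88 in the CNT glands, against 6.41, 6.63 and 6.12 in the NC glands (log2 fold change 1.81 ± 0.28 SE, adjusted p = 0.00402). CASP1, the protease that the inflammasome activates, was at 8.42, 8.98 and 8.63 in the CNT glands, against 7.15, 7.40 and 6.68 in the NC glands (log2 fold change 1.6 ± 0.22 SE, adjusted p = 0.00275). The CNT glands were above the NC glands for CASP1. TLR2, a receptor of bacterial lipoproteins, was called at 1.35, but the CNT gland of cow8452 (10.96) lay below the NC gland of cow8605 (11.13). TLR4 had a log2 fold change of 0.66 and MYD88, the adaptor shared by most Toll-like receptors, one of 0.07, and neither was called. BIRC3, an inhibitor of apoptosis (1.39), the kinase gene IKBKE (1.29) and NFKBIA, the inhibitor of NF-kB (1.02), completed the calls. NFKBIZ gave -0.21 by its brighter and 2.15 by its dimmer probe set. CASP1, IKBKE and PYCARD held in all leave-out fits, and these 3 were the ones left without cow8605, without cow8507, without the NC glands of these cows and on the CNT and NC arrays alone. All these fits kept the same filter, so that PYCARD had to differ in them too.

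The axis of IL6 and STAT3, which induces acute phase genes, had 5 of 15 tested members called higher and none lower, of 19 on the array with a median of 0.76. They were OSMR, the transcription factor genes STAT3 (1.25), CEBPB (1.10) and CEBPD (1.05), and the receptor gene IL6R (1.22). STAT3 was at 11.86, 11.59 and 12.12 in the CNT glands, against 10.40, 10.73 and 10.67 in the NC glands (adjusted p = 0.00888, and 0.0819 without cow8605). SOCS3, the feedback inhibitor of STAT3, had a difference of 1.49, was not tested and was called only without the filter. None of the 5 calls held without cow8605, 1 held without cow8507, 3 held without the CNT gland of cow8605 or the NC gland of cow8605 or cow8452, 1 held without the cow term, and 3 held after a further quantile normalization.

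Complement genes rose at several steps of the cascade. Of 28 genes on the array, 11 of the 20 tested were called higher and none lower, and the median was 0.96. C4BPA, the alpha chain of the inhibitor C4b-binding protein, was at 13.02, 11.23 and 12.34 in the CNT glands, against 7.61, 9.25 and 6.85 in the NC glands (log2 fold change 4.29 ± 0.96 SE, adjusted p = 0.019). CFB, the protease of the alternative pathway, was at 13.16, 12.59 and 12.65 in the CNT glands, against 8.52, 10.29 and 8.51 in the NC glands (log2 fold change 3.69 ± 0.69 SE, adjusted p = 0.00937). The animal cow8452 had the highest NC level and the smallest difference for both. CFI, a protease that inactivates complement, differed least in cow8605. It was at 9.57, 12.31 and 9.43 in the CNT glands, against 7.56, 9.03 and 6.18 in the NC glands (log2 fold change 2.85 ± 0.59 SE, adjusted p = 0.0142, and 0.138 without the cow term). CLU, the secreted chaperone clusterin, was at 13.92, 14.26 and 14.05 in the CNT glands, against 11.53, 12.69 and 11.93 in the NC glands (log2 fold change 2.03 ± 0.39 SE, adjusted p = 0.0108, and 0.0546 without the cow term).

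The proteases of the first component, C1R (1.91) and C1S (1.30), rose together with the subunits of C1q that macrophages make, C1QA (1.34) and C1QC (1.11), while C1QB had 0.92 and was not called for its size. C1S was at 10.24, 10.53 and 9.91 in the CNT glands, against 8.80, 9.31 and 8.67 in the NC glands (adjusted p = 0.00069), with differences that were alike in the 3 cows. FCN1, a lectin of myeloid cells (1.75, which passed the filter through the CNT arrays alone), VSIG4 and the C1 inhibitor gene SERPING1 (1.0) were also called. C3, the central component, was at 15.21, 14.73 and 15.13 in the CNT glands, against 14.46, 14.80 and 14.93 in the NC glands, where the groups overlapped near the top of the scale (log2 fold change 0.29). C6, of the terminal complex, and CD55, which protects cells from complement, had differences of 2.02 and 2.18, lay too low to be tested and were called without the filter. C1S and CLU kept their calls in all leave-out fits and were the only calls left without cow8605. C4BPA lost its call in 6 of the 9 fits, the adjusted p of CFB was 0.0623 without cow8605 and 0.0569 without cow8507, and 5 calls of the list held without the NC gland of cow8452, 6 without cow8452, 6 without the NC gland of cow8507, 7 without cow8507 and 6 without the cow term.

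**Figure D3:**
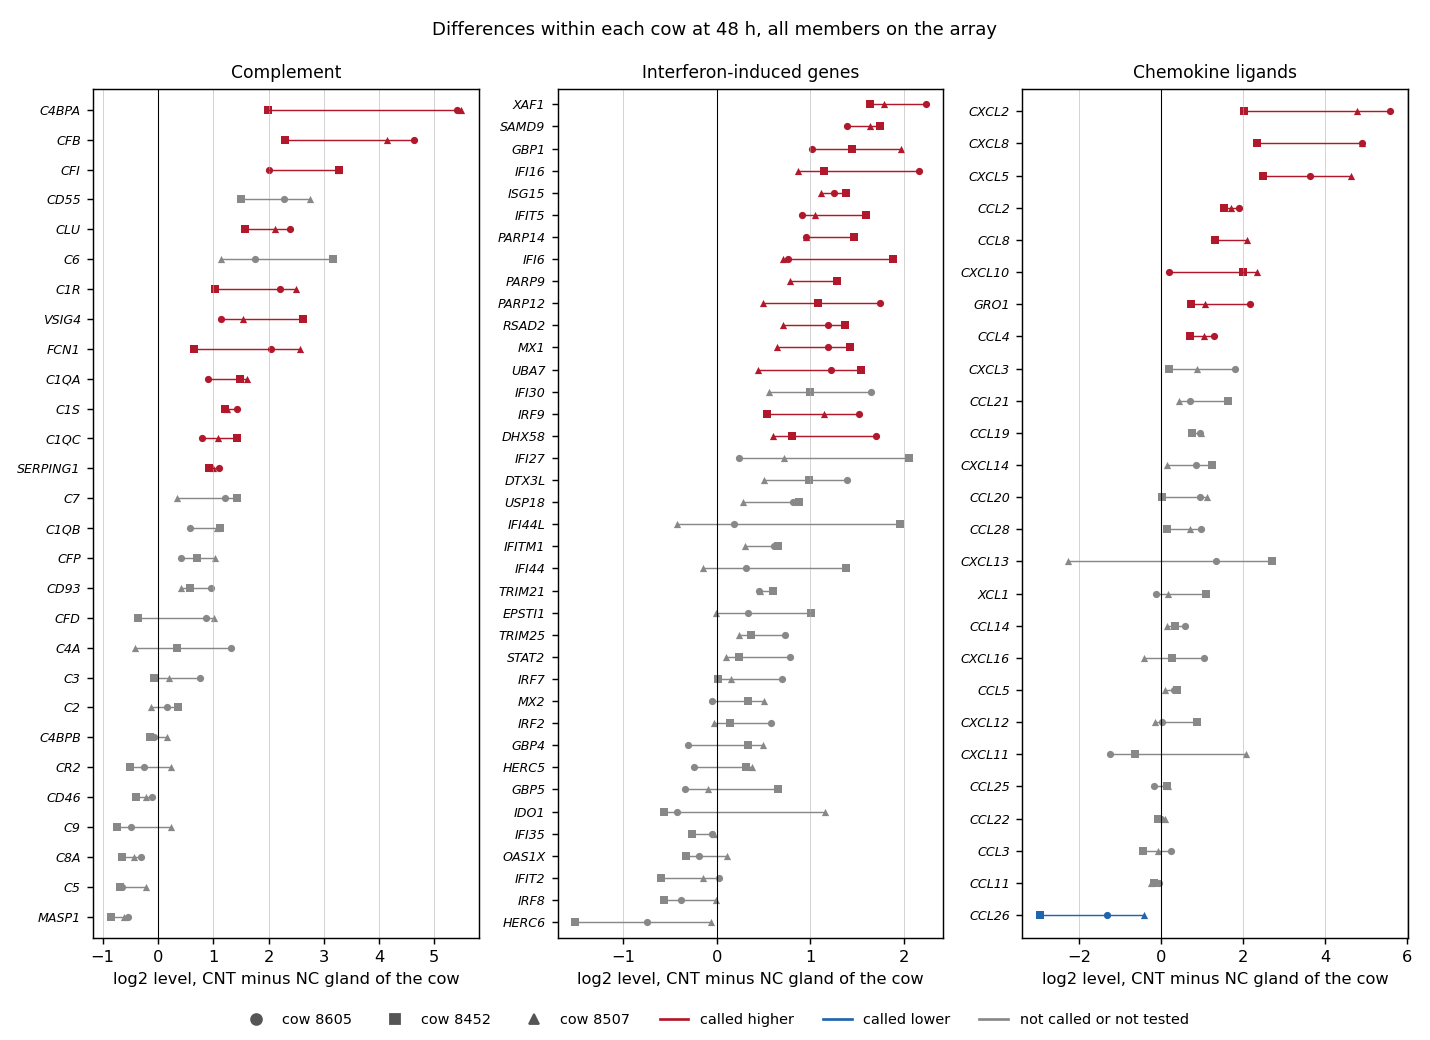
Difference in log2 level between the CNT and the NC gland of each cow (horizontal axis) for all members on the array of the complement, interferon-induced and chemokine ligand lists, with a symbol per cow and colour by call. The animal cow8452 (square) has the smallest of the 3 differences for C4BPA, CFB, CXCL2 and CXCL8, whereas the interferon-induced genes called higher differ by no more than 2.24 in any cow.

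Of 38 interferon-induced genes on the array, 15 of the 28 tested were called higher and none lower, with a median of 0.62, and 33 of the 38 differences were positive. GBP1 and RSAD2 passed the filter through the CNT arrays alone, and 11 of the 15 calls held with a filter on the mean level. The largest difference on the list was that of XAF1, which promotes apoptosis. XAF1 was at 9.72, 9.80 and 9.21 in the CNT glands, against 7.48, 8.16 and 7.43 in the NC glands (log2 fold change 1.89 ± 0.27 SE, adjusted p = 0.00301). ISG15, a protein tag that interferon induces, was at 9.46, 9.61 and 9.13 in the CNT glands, against 8.20, 8.23 and 8.02 in the NC glands (log2 fold change 1.25 ± 0.13 SE, adjusted p = 0.000846). The groups did not overlap for either gene. SAMD9 (1.59), GBP1 (1.48) and IFI16, a sensor of DNA (1.39), were the other rises above 1.25, and those of MX1 and RSAD2, which block virus replication, were 1.09 each. OAS1X (-0.14), IFI44 (0.51) and MX2 (0.26) were not tested. ISG15, SAMD9 and XAF1 held in all leave-out fits and were the only calls left without cow8605. Only 5 calls held without cow8452, 7 without its NC gland, 9 without its CNT gland or the CNT gland of cow8605, and 10 without the NC gland of cow8605. When the 48 h arrays were quantile normalized again 5 of the 15 calls held, and without the cow term 8 held.

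Antigen processing had 4 calls of 25 tested members and 30 on the array, with a median of 0.62. These were the subunits of the immunoproteasome PSMB9 (1.40), PSMB8 (1.21) and PSMB10 (1.13) and the cathepsin CTSS (1.18). PSMB9 was at 9.70, 11.23 and 9.65 in the CNT glands, against 8.77, 9.31 and 8.31 in the NC glands (adjusted p = 0.00356, and 0.0827 without the cow term), with the largest difference in cow8452. BOLA-DRA, a class II histocompatibility chain (0.50), and B2M, the light chain of class I molecules (0.23), were not called. The calls of CTSS and PSMB9 held in all leave-out fits and were the only ones left without cow8605, and 2 of the 4 calls held without the cow term.

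The phagocyte NADPH oxidase, which makes superoxide in phagocytes, and Fc receptors had the highest median of any list, 1.27 over 10 genes on the array, of which 6 of the 8 tested were called higher and none lower. NCF1, a cytosolic subunit of the oxidase, was at 9.71, 9.30 and 9.04 in the CNT glands, against 7.03, 7.45 and 6.42 in the NC glands (log2 fold change 2.38 ± 0.29 SE, adjusted p = 0.0018). NCF4, another cytosolic subunit (2.23, a call lost in 7 of the 9 leave-out fits), the membrane subunits CYBA (1.38) and CYBB (1.35), and the Fc receptor genes FCER1G (1.31) and FCGR1A were the other calls. CYBA, CYBB and NCF1 held in all leave-out fits, and 4 of the 6 held without cow8605, without its CNT gland or without cow8507. The summed signal of the leukocyte list was higher in the same glands, and its part in these values was not tested.

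Of 20 adhesion molecules on the array, 3 of the 16 tested were called higher. CD44, the receptor for hyaluronan, was at 12.92, 10.86 and 11.47 in the CNT glands, against 9.29, 9.16 and 8.26 in the NC glands (log2 fold change 2.85 ± 0.50 SE, adjusted p = 0.00729). ICAM1, the endothelial and epithelial ligand of leukocyte integrins, was at 9.14, 9.53 and 8.78 in the CNT glands, against 7.28, 8.20 and 7.24 in the NC glands (log2 fold change 1.57 ± 0.30 SE, adjusted p = 0.00957, and 0.0722 without cow8605). The third was ITGB2. The call of CD44 held in all leave-out fits and was the only one left without cow8605. Endothelial markers showed no call among 6 tested of 11, and their median was 0.14, with summed signals of 2561 to 2873 in the CNT glands, against 2225 to 2283 in the NC glands. PECAM1 (0.67, adjusted p = 0.0411) passed the test but not the fold threshold, and CDH5 had a log2 fold change of -0.13.

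Proteases that act on matrix and in lysosomes formed a further group of rises, with 8 of 21 tested members called higher and 1 lower, of 27 on the array with a median of 0.79. CTSC, which activates the serine proteases of neutrophil granules, was at 13.37, 13.34 and 13.08 in the CNT glands, against 10.32, 11.37 and 9.77 in the NC glands (log2 fold change 2.78 ± 0.46 SE, adjusted p = 0.00582). PLAU, the plasminogen activator urokinase, was at 9.87, 9.88 and 9.12 in the CNT glands, against 7.54, 8.17 and 7.21 in the NC glands (log2 fold change 1.98 ± 0.32 SE, adjusted p = 0.00534). The groups were clearly apart for both, and both calls held in all leave-out fits. MMP19, a matrix metalloproteinase (2.51), CTSH (1.99), the urokinase receptor gene PLAUR (1.31), the tissue activator gene PLAT (1.27), the inhibitor gene TIMP1 (1.14) and CTSZ (1.02) were also called, and ADAMTS1, which cleaves proteoglycans, was called lower (-1.09), a call that was lost in 5 of the 9 leave-out fits and without the cow term. The call of PLAT was lost in 7 of the 9 leave-out fits, with the arrays centred on their medians (adjusted p = 0.0538) or quantile normalized again (0.0693), on the CNT and NC arrays alone (0.0619), with the cow as a random term (0.0615) and without the cow term (0.2). The collagenase gene MMP13 and the stromelysin gene MMP3 were not tested. Of the 8 rises 3 held without cow8605, 4 without cow8452, and 5 without the CNT or NC gland of cow8452 or the NC gland of cow8507 or after a further quantile normalization.

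Genes of lipid mediators moved both ways. ALOX5AP and PTGDS, which makes prostaglandin D2 (1.54, adjusted p = 0.0101, and 0.0722 without cow8605, 0.057 without cow8507 and 0.127 without the cow term), were called higher. ALOX15, which oxygenates arachidonic and linoleic acid, was called lower, at 8.23, 8.82 and 8.98 in the CNT glands, against 12.57, 12.14 and 11.21 in the NC glands (log2 fold change -3.30 ± 0.48 SE, adjusted p = 0.00334, and 0.0574 without cow8605). HPGD, which inactivates prostaglandins, was at 7.40, 7.70 and 10.24 in the CNT glands, against 10.02, 9.84 and 12.35 in the NC glands (log2 fold change -2.29 ± 0.39 SE, adjusted p = 0.00634, and 0.0613 without cow8605 and 0.151 without the cow term). Its CNT gland of cow8507 lay above the NC glands of the other cows, so the groups overlapped although each cow showed a fall. PTGS2, the inducible cyclooxygenase, had a difference of 0.24 and was not tested. These were 2 calls in each direction among 9 tested and 19 on the array, with a median of 0.24. ALOX5AP was the only one of these calls that held in all leave-out fits, and neither fall was called without cow8605, where the log2 fold changes were -2.78 for ALOX15 and -2.13 for HPGD.

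Defence against oxidative stress rose with 8 of 22 tested members of 26 on the array, none lower, and a median of 0.57. The metallothioneins, which bind zinc and copper, led the list. MT2A was at 13.51, 12.83 and 13.20 in the CNT glands, against 9.85, 10.68 and 10.19 in the NC glands (log2 fold change 2.94 ± 0.71 SE, adjusted p = 0.0245), and MT1A had a log2 fold change of 2.45 ± 0.53 (SE). HMOX1, which degrades haem, was at 9.98, 10.85 and 9.97 in the CNT glands, against 8.24, 8.77 and 7.98 in the NC glands (log2 fold change 1.94 ± 0.25 SE, adjusted p = 0.00214). SRXN1, which repairs peroxiredoxins (1.83), the mitochondrial superoxide dismutase SOD2 (1.58), glutathione reductase GSR (1.37), GPX1 (1.29) and NQO1 (1.06) followed. The cytosolic dismutase SOD1 had -0.62 and was not called. HMOX1 and SRXN1 kept their calls in all leave-out fits. MT2A lost its call in 6 of the 9 leave-out fits and, with an adjusted p of 0.0524, without the cow term. Of the 8 calls, 3 held without cow8605, 4 without the NC gland of cow8452, and 5 without cow8452, without cow8507, without the NC gland of cow8605 or cow8507 and without the cow term.

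The unfolded protein response and heat shock list had 4 calls of 23 tested members and 24 on the array, all higher, with a median of 0.48. They were MANF (1.36), CRELD2 (1.23), PDIA4 (1.18) and DNAJC3 (1.10). MANF was at 13.29, 12.86 and 13.43 in the CNT glands, against 12.67, 11.84 and 11.01 in the NC glands, with the largest difference in cow8507. HSPA5, the main chaperone of the endoplasmic reticulum, had a log2 fold change of 0.77 by its brighter probe set and fell short of the fold threshold, while a dimmer HSPA5 probe set was called at 1.17 (adjusted p = 0.0468). No call of this list held without cow8605, without cow8507 or without the cow term, 1 held without the CNT or the NC gland of cow8507, 1 held on the CNT and NC arrays alone, and 2 held without cow8452, without the NC gland of cow8605 or after a further quantile normalization. Of 18 genes of apoptosis on the array, 3 of the 15 tested were higher, BCL2A1, a survival factor of myeloid cells (2.12), CASP4, a caspase that binds lipopolysaccharide in human cells (1.81), and CASP1, of which only CASP1 was called without cow8605 or without cow8507. BCL2, another member, depended on its probe set. It had 0.78 by the brightest, which was not called, and 1.66 by a dimmer one, which was called (adjusted p = 0.0021), while its further probe sets gave 0.24 and were not called. Glycolysis, with a median of 0.53 over 22 genes, and the respiratory chain with the citric acid cycle, with a median of 0.10 over 33, held no call. Of the 22 glycolysis differences 19 were positive and 3 negative. They were positive in all 3 cows for 15 genes (68.2%), against 33.2% of all genes on the array. LDHA, a chain of lactate dehydrogenase, depended on its probe set, with 0.40 by the brightest, which was not called, and 2.14 by a dimmer one, which was called (adjusted p = 0.00534). The glycolytic aldolase gene ALDOA had a log2 fold change of 0.09 and COX6C, of cytochrome oxidase, one of 0.04, and the signs of both turned when the arrays were quantile normalized again (-0.074 and -0.112).

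Cell division genes were low on the array, with 8 of 23 tested. Of the 23 differences 22 were positive, with a median of 0.78, and 17 (73.9%) were positive in all 3 cows, against 33.2% of all genes on the array. Without the filter 4 of the untested members were called. MCM6, a subunit of the replicative helicase, was called at 1.40, at 8.21, 10.09 and 8.07 in the CNT glands, against 7.39, 7.66 and 7.11 in the NC glands, and its call was lost without cow8605, without cow8452, without the NC gland of cow8452 and without the cow term. The median difference over the 23 genes was 0.44 in cow8605, 1.75 in cow8452 and 0.24 in cow8507. The shift was largest in cow8452, whose CNT gland had a summed signal of 12465, against 5074 in its NC gland. Of 12 genes of the glucocorticoid receptor and its targets, SGK1, a kinase of ion transport (1.22), and NFKBIA were called higher of the 8 tested, and neither was called without cow8605, without cow8452, without the NC glands of cow8452 and cow8507, or without the cow term.

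**Figure D4:**
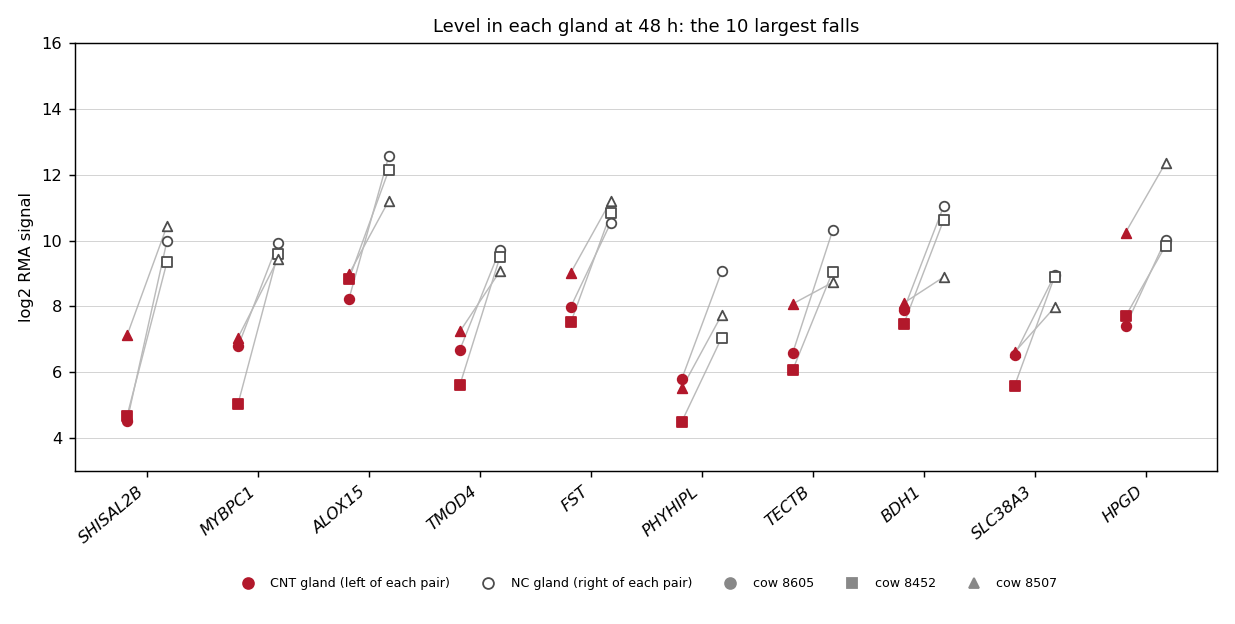
Level (log2 RMA signal, vertical axis) of the 10 genes with the largest called falls in each gland at 48 h, with the CNT gland (filled) left of the NC gland (open) and a line joining the glands of a cow. The CNT glands lie below the NC glands for every gene except HPGD, where the CNT gland of cow8507 (10.24) lies above the NC glands of cow8605 and cow8452.

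The falls were fewer and involved genes of other functions. SHISAL2B, which encodes a small membrane protein, was at 4.52, 4.68 and 7.12 in the CNT glands, against 9.99, 9.35 and 10.44 in the NC glands (log2 fold change -4.48 ± 0.64 SE, adjusted p = 0.00317). MYBPC1, a myosin-binding protein, was at 6.79, 5.04 and 7.05 in the CNT glands, against 9.92, 9.60 and 9.44 in the NC glands (log2 fold change -3.36 ± 0.42 SE, adjusted p = 0.00204). FST, which encodes the activin-binding protein follistatin, was at 7.99, 7.52 and 9.02 in the CNT glands, against 10.54, 10.83 and 11.20 in the NC glands (log2 fold change -2.68 ± 0.21 SE, adjusted p = 0.00045). These 3 falls were called in all 9 leave-out fits and without the cow term, and in each of them the CNT gland of cow8507 had the highest CNT value. Of 9 genes of activin signalling on the array FST was the only call among 8 tested.

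The other falls in the plot of falls were not called without cow8605, where 2 cows remained. Their log2 fold changes in that fit kept their direction, with -2.85 for TMOD4, -2.39 for PHYHIPL, -2.33 for SLC38A3, -1.97 for BDH1 and -1.82 for TECTB. TMOD4, which caps actin filaments in muscle, was at 6.69, 5.62 and 7.24 in the CNT glands, against 9.72, 9.49 and 9.06 in the NC glands (log2 fold change -2.91 ± 0.42 SE, adjusted p = 0.00317, and 0.0669 without cow8605). BDH1, the mitochondrial enzyme that interconverts the ketone bodies, was at 7.90, 7.46 and 8.10 in the CNT glands, against 11.04, 10.62 and 8.89 in the NC glands (log2 fold change -2.36 ± 0.43 SE, adjusted p = 0.00875, and 0.102 without cow8605, 0.0709 without cow8452, 0.0565 without the NC gland of cow8452 and 0.0554 without the cow term). SLC38A3, a glutamine transporter, was at 6.53, 5.60 and 6.61 in the CNT glands, against 8.95, 8.91 and 7.97 in the NC glands (log2 fold change -2.36 ± 0.35 SE, adjusted p = 0.00349, and 0.0697 without cow8605). In all of these cow8507 showed the smallest fall. PHYHIPL had a log2 fold change of -2.68 (adjusted p = 0.00204, and 0.0541 without cow8605 and 0.0787 without the cow term), and TECTB, which encodes a tectorin, one of -2.45 (adjusted p = 0.019, and 0.13 without cow8605, 0.0945 without cow8452, 0.109 without the NC gland of cow8452, 0.0763 without the NC gland of cow8605 and 0.0899 without the cow term).

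Milk fat synthesis and secretion was the list with the most falls. Of 43 genes on the array, 39 were tested, 9 were called lower and 1 higher, and 33 of the 43 differences were negative, with a median of -0.41. The difference was negative in all 3 cows for 21 of the 43 (48.8%), against 17.1% of all genes on the array. LPL, which releases fatty acids from circulating lipoproteins, was at 12.12, 11.47 and 12.36 in the CNT glands, against 14.25, 13.83 and 13.29 in the NC glands (log2 fold change -1.81 ± 0.29 SE, adjusted p = 0.00541, and 0.0829 without cow8605). GPAT4, which starts triglyceride assembly, was at 10.19, 9.28 and 10.26 in the CNT glands, against 11.98, 11.23 and 11.13 in the NC glands (log2 fold change -1.54 ± 0.22 SE, adjusted p = 0.00338, and 0.0663 without cow8605 and 0.0682 without the cow term). LPL and GPAT4 were lower in each CNT gland than in the NC gland of the same cow, by the smallest amount in cow8507. FASN, the fatty acid synthase, was at 13.11, 12.66 and 13.57 in the CNT glands, against 14.25, 14.07 and 14.41 in the NC glands (log2 fold change -1.13 ± 0.14 SE, adjusted p = 0.00203). ACACA, which makes the malonyl-CoA that FASN uses, was at 8.09, 6.97 and 8.38 in the CNT glands, against 9.10, 8.69 and 8.77 in the NC glands (log2 fold change -1.04 ± 0.24 SE, adjusted p = 0.022). A dimmer ACACA probe set was not called (-0.77, adjusted p = 0.0899). In cow8507 it was higher in the CNT gland (7.62) than in the NC gland (7.43).

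CIDEA, a lipid droplet protein (-1.44), PPARGC1A, a coactivator of metabolic genes (-1.22), the transporter gene ABCG2 (-1.21), MFGE8, a protein of the milk fat globule (-1.20), and the lipoprotein receptor gene VLDLR (-1.12) were the other falls. CIDEA overlapped between the groups, since the NC gland of cow8507 (11.62) lay below the CNT gland of cow8605 (11.93). The desaturase gene SCD (-0.85, adjusted p = 0.0091) and the fatty acid transporter CD36 (-0.78, adjusted p = 0.0264) passed the test but not the fold threshold. The genes that package the fat globule membrane, BTN1A1 (-0.51), XDH (-0.22) and PLIN2 (-0.12), were not called. ELOVL5, an elongase of polyunsaturated fatty acids, was called higher (1.06), and this call was lost when the arrays were centred on their medians or quantile normalized again. The median difference of the list was -0.48 in cow8605, -0.67 in cow8452 and -0.075 in cow8507. None of the 9 falls held in all leave-out fits. Without cow8605 1 held, without cow8452 2, without the CNT or the NC gland of cow8452 4, without the NC gland of cow8605 5, without the cow term 3 and on the CNT and NC arrays alone 4, whereas all 9 held without cow8507. Of the 7 differences of adipocyte markers 6 were negative and 4 (57.1%) were negative in all 3 cows, and their summed signal was 5587 in the CNT gland, against 8634 in the NC gland of cow8605, 3286, against 5301 in cow8452, and 4440, against 4272 in cow8507. FABP4, a fatty acid carrier of adipocytes, was not called by its brighter probe set (-0.44) and was called lower by a dimmer one (-1.12, adjusted p = 0.043). FABP4 is a member of the milk fat list too, and its brighter probe set made up most of this summed signal in every gland, so that the sum mainly follows a single gene. The part of adipose tissue in the falls of milk fat genes was not tested.

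**Figure D5:**
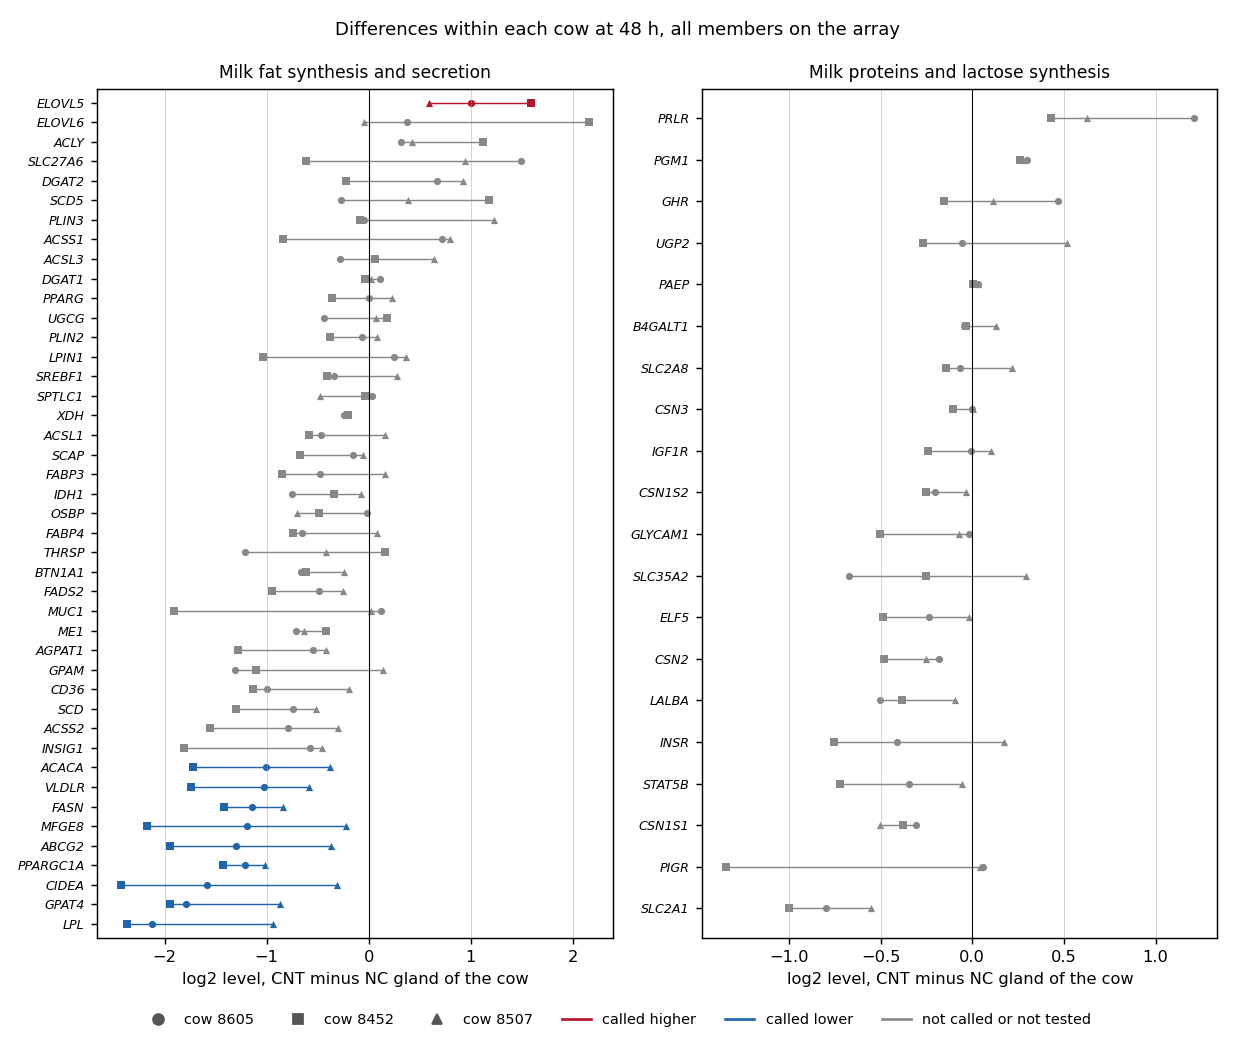
Difference in log2 level between the CNT and the NC gland of each cow (horizontal axis) for all members on the array of the milk fat list and of the milk protein and lactose list, with a symbol per cow and colour by call. The animal cow8507 (triangle) has the smallest fall for each of the 9 milk fat genes called lower, and no milk protein or lactose gene is called.

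Cholesterol synthesis leaned the same way, with 14 of 17 differences negative and a median of -0.36, but only TM7SF2, a sterol reductase, was called (-1.16, adjusted p = 0.00605, and 0.0845 without cow8605 and 0.125 without the cow term). Its CNT gland of cow8507 (8.74) lay above the NC gland of cow8452 (8.37). Milk protein and lactose genes had no call among 18 tested of 20, and a median of -0.18. The beta-casein gene CSN2 was at 15.29, 15.10 and 15.32 in the CNT glands, against 15.47, 15.58 and 15.57 in the NC glands (log2 fold change -0.31 ± 0.11 SE, adjusted p = 0.0925). LALBA, the lactose synthase subunit alpha-lactalbumin, was at 14.84, 14.88 and 15.20 in the CNT glands, against 15.35, 15.27 and 15.30 in the NC glands (log2 fold change -0.33, adjusted p = 0.0941). All CNT glands lay below all NC glands for both genes, by amounts that did not pass the test and at levels near the top of the scale. SLC2A1, the glucose transporter of the gland, had -0.78 (adjusted p = 0.0107), short of the fold threshold.

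Transporters moved both ways, with 6 called higher and 2 lower of 31 tested and 34 on the array, and a median of -0.01. SLC34A2, the phosphate transporter of secretory epithelium, was at 5.48, 5.10 and 6.18 in the CNT glands, against 8.36, 7.18 and 6.56 in the NC glands (log2 fold change -1.78 ± 0.43 SE, adjusted p = 0.0257), with a fall that was small in cow8507. The lactate and ketone body transporter SLC16A1 had a log2 fold change of -1.19, and the related exporter of lactate SLC16A3 one of 1.68. SLC11A1, an ion transporter of phagosomes (2.40), SLC7A7, a carrier of cationic amino acids (1.72), the water channel AQP5 (1.6), the glutamate carrier SLC1A1 (1.38, which passed the filter through the CNT arrays alone) and the calcium pump ATP2B1 (1.04) were the other rises. ATP2B1 depended on its probe set, since its dimmer ones gave -0.11 and 0.51 and were not called. SLC7A7 was the only member of the list whose call held in all leave-out fits. Of the 6 rises 2 held without cow8605 or cow8452, 3 without cow8507 or the NC gland of cow8452 and 4 without the NC gland of cow8605 or cow8507, while 3 held on the CNT and NC arrays alone. Neither fall held without cow8605, without cow8452, without the NC gland of either, on the CNT and NC arrays alone or without the cow term.

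Keratins and epithelial junction genes had no call among 17 tested of 20 and a median of 0.24, with summed signals of 48089 to 66074 in the CNT glands, against 36803 to 62345 in the NC glands. KRT19, a keratin of luminal epithelium, had a log2 fold change of -0.08, which was 0.25 without cow8507. Smooth muscle and myoepithelial genes had the lowest median of the 36 lists, -0.45, with 11 of 12 differences negative and MYBPC1 as the only call, and their summed signal was between 24603 and 27188 in the CNT glands, against 21369 to 51563 in the NC glands. The NC gland of cow8605 was the low one, and the median difference was 0.13 in that cow, -0.59 in cow8452 and -0.90 in cow8507. Skeletal muscle markers were uneven between glands. MYH1, a fast myosin heavy chain, was at 4.66, 4.28 and 4.98 in the CNT glands, against 4.71, 7.21 and 9.89 in the NC glands, so that the NC glands of cow8452 and cow8507 stood apart, and CKM, the muscle creatine kinase, was called higher (2.08, adjusted p = 0.016, and 0.106 without cow8605). The part of muscle tissue in the falls of MYBPC1 and TMOD4 was not tested. Adipocyte markers had no call among 2 tested of 7 and a median of -0.25, and fibroblast matrix genes had 2 calls of 19 tested and 22 on the array, FN1, which encodes fibronectin (1.77), and COL3A1, a fibrillar collagen (1.34), with a median of 0.18. Only FN1 held in all leave-out fits.

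The 3 cows shared the rises more evenly than the falls. The median difference of the 503 probe sets called higher was 1.41 in cow8605, 1.49 in cow8452 and 1.37 in cow8507. That of the 169 called lower was -1.31, -1.81 and -0.91, and cow8452 had the largest fall for 116 of the 169. For 309 of the 503 probe sets called higher, the NC gland of cow8452 had the highest NC value, as it did for HP, LBP, CFB, C4BPA and CXCL2. Some genes are named because their test statistics were the largest. LOC100847724, a locus without a gene name in the annotation, was at 10.83, 12.21 and 11.07 in the CNT glands, against 7.95, 9.18 and 7.88 in the NC glands (log2 fold change 3.03 ± 0.16 SE, adjusted p = 6.21e-05). TPPP3, a tubulin-binding protein (2.35 ± 0.19 SE), and SAMSN1, an adaptor of lymphocytes (2.11 ± 0.16 SE), had the same adjusted p of 0.00045 as ALOX5AP and FST. SDS, which encodes serine dehydratase, was among the least steady. It was at 11.73, 10.10 and 11.51 in the CNT glands, against 6.53, 8.64 and 6.27 in the NC glands (log2 fold change 3.97 ± 0.85 SE, adjusted p = 0.016), and its call was lost in 5 of the 9 leave-out fits.

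The change at 48 h was set against that in the 2 cows sampled at 24 h by a test of the difference between both changes over all 20 arrays, which compares different cows. It called 26 of 13501 probe sets (0.193%), and the change was the more positive at 48 h for 19 of them and at 24 h for 7. Without cow8605 or without cow8620 of 24 h, and likewise without the cow term, no probe set was called by limma, where 1873, 749 and 1042 had an unadjusted p under 0.05. Without cow8452 the number was 13, without cow8507 it was 108 and without cow8609 of 24 h it was 43.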

How the data were processed

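The authors normalized the arrays by RMA with the affy package and deposited log2 values of 24128 probe sets for 20 glands. The labels say that the arrays of the 2 time points were analysed separately. Probe sets were named through the GEO platform annotation, in which 13292 had 1 gene symbol, 86 several and 10638 none after 112 control probe sets were left out. A probe set was tested where it lay above the array median on at least 3 of the 12 arrays of 48 h, and 54 probe sets passed through the CNT arrays alone. The fits that left out a gland or a cow kept this filter. The 12 arrays were fitted in R 4.3.3 with limma 3.58.1, with group and cow as terms (6 residual degrees of freedom). The study's methods name limma and no cow term, so that the fit without it is the alternative closest to them. Benjamini-Hochberg adjustment covered all 13000 probe sets tested, and probe sets were called where the adjusted p was under 0.05 and the change at least 2-fold. Errors are standard errors of this fit. The cow number names the animal that gave both glands and so pairs them. The residuals of the CNT and NC glands of a cow correlated by 0.264 (cow8605), 0.381 (cow8452) and 0.215 (cow8507).

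With 3 cows the number of arrays limits the precision, and 1 of the 6 cows planned was excluded for RNA quality. The 36 gene lists were chosen with earlier results of these data known. A gene was taken from its probe set with the highest mean, or, where chosen for its change, from the probe set that led to its choice. Genes named are the 10 largest rises and falls, the 6 largest test statistics, the 6 widest ranges over cows, and up to 4 called members of each list (without a call, the 2 brightest). Some of these brightest members are left unnamed. CCL2, CXCL2, CXCL8, LBP and IL12A, which the study measured by other means, are named too. Other genes were chosen after their values were seen. Alternatives to the cow term, the arrays fitted, the filter, the scaling, the fold threshold and each gland or cow were run. No per-sample column was left out.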

Additional observations from a re-analysis of the deposited data

Results flagged for a closer look

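For 7 members of the gene lists the change of CNT against NC glands differed between 48 h and 24 h in the test of that difference. The pentraxin gene PTX3 had a log2 fold change of 0.25 at 48 h and 2.87 at 24 h (difference -2.62, adjusted p = 0.0481). The decoy receptor gene IL1R2 had 1.85 at 48 h and 3.79 at 24 h (difference -1.94, adjusted p = 0.0454). A probe set of CD40, the co-stimulatory receptor of antigen-presenting cells, had 1.09 at 48 h and 2.87 at 24 h (difference -1.78, adjusted p = 0.0168). CCL19, a chemokine of lymphoid tissue, had 0.89 at 48 h and 2.54 at 24 h (difference -1.64, adjusted p = 0.0454). These 4 genes differed more from the NC glands at 24 h. After median centring the adjusted p was 0.0519 for PTX3 and IL1R2, 0.0486 for CCL19 and 0.021 for CD40. Without cow8452 it was 0.113 for IL1R2, 0.0713 for CCL19 and 0.0465 for PTX3 and CD40. Without cow8507 it was 0.0512 for PTX3, 0.0712 for IL1R2, 0.0456 for CCL19 and 0.00838 for CD40. Without cow8605 it was 0.158 for PTX3, 0.105 for IL1R2 and CD40 and 0.111 for CCL19. Leaving out cow8620 or cow8609 leaves a single cow at 24 h, and no value per gene is given for these fits.

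The other 3 had the more positive change at 48 h. The complement protease gene C1S had 1.30 at 48 h and -0.25 at 24 h (difference 1.55, adjusted p = 0.0168), SLC3A2, the heavy chain of amino acid transporters, had 0.60 at 48 h and -1.19 at 24 h (difference 1.79), and C6 had 2.02 at 48 h and -1.54 at 24 h (difference 3.56). After median centring the adjusted p was 0.054 for C6, 0.021 for C1S and 0.0249 for SLC3A2. Without cow8605 it was 0.105 for C1S and SLC3A2 and 0.150 for C6. For each of the 3 genes it was 0.0381 without cow8452 and 0.0456 without cow8507. Cows differed between the time points, with 3 at 48 h and 2 at 24 h, and limma called no probe set without cow8605, without cow8620 or without the cow term, with 1873, 749 and 1042 under 0.05 before adjustment.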

How the results depend on the processing

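The count of 672 calls (503 higher, 169 lower) was 346 without the cow as a replicate block (279 higher, 67 lower), and all 346 were among the 672. It was 2048 with no minimum of the fold change (1413 higher, 635 lower), 257 with a log2 fold change of at least 1.5 (204 higher, 53 lower) and 375 with 1 probe set per gene symbol (293 higher, 82 lower). The CNT and NC arrays alone gave 98 lower. Leaving out a gland or a cow gave 228 to 802 calls, 187 to 579 higher and 41 to 239 lower. With a cow left out and no replicate block, the count was 0 (0 higher, 0 lower, with 2615 at an unadjusted p under 0.05) without cow8605, 163 (151 higher, 12 lower) without cow8452 and 16 (14 higher, 2 lower) without cow8507. The 26 calls of the time difference became 0 with no replicate block and 10 after median centring, with 0 to 108 when a cow was left out.

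Scaling moved the split of calls. The median log2 fold change of all tested probe sets was 0.126, 0.064 after median centring and -0.036 after a further quantile normalization, and the higher calls were 74.9% of all calls, 68.6% (435 against 199) and 59.9% (338 against 226). Of 173 named results, 103 kept their status, called or not called, without the block and 66 without cow8605, with no reversal in either. These counts include genes that were called in neither fit. The reversals were those of genes that were not called. ALDOA was -0.074 after quantile normalization. COX6C was -0.027 after median centring, -0.112 after quantile normalization, -0.146 without the CNT gland of cow8452, -0.047 without its NC gland and -0.163 without that cow, with or without the block, and 0.177 without cow8605. PAEP was -0.039 after median centring. KRT19 was 0.157 without the CNT gland of cow8507, 0.125 without its NC gland and 0.250 without that cow, with or without the block, and -0.326 without cow8605. The cause was not tested. Values near the top of the scale and those below the array median limit what could be called.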

Other observations

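Some called genes lay outside the gene lists and were chosen after their values were seen. Called falls included both subunits of the mitochondrial pyruvate carrier, MPC1 with a log2 fold change of -1.60 ± 0.20 (SE, adjusted p = 0.00203) and MPC2 with -1.12 ± 0.19 (SE, adjusted p = 0.00671). PC, which encodes pyruvate carboxylase (-1.09), FBP2, a fructose bisphosphatase (-1.74), BCKDHA, of branched-chain amino acid breakdown (-1.04), the triglyceride lipase gene PNPLA2 (-1.32) and its inhibitor G0S2 (-1.75) were lower too. The call of MPC1 and that of FBP2 held in all 9 leave-out fits. Those of G0S2 and PNPLA2 were lost in 6 and 7 of them, that of MPC2 in 4 and those of PC and BCKDHA in 3 each, and of these 7 genes only MPC1 and PC were called without the cow term. PTHLH, the parathyroid hormone-related peptide that the lactating gland secretes, had a log2 fold change of -2.22 ± 0.40 (SE, adjusted p = 0.00782, and 0.0803 without cow8605).

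Called rises outside the lists included NFE2 and PLEK. NFE2, a transcription factor of blood cells, had a log2 fold change of 3.43 ± 0.35 (SE, adjusted p = 0.000846) and PLEK, which encodes pleckstrin of platelets and leukocytes, one of 3.37 ± 0.34 (SE, adjusted p = 0.000737). NFE2 and PLEK passed the filter through the CNT arrays alone, so that they had to differ. The lysosomal lipase gene LIPA (1.90), APOE, an apolipoprotein (1.83), the galectin gene LGALS3 (1.68) and the glycoprotein gene GPNMB (1.62), were called higher, as was UGDH, which makes the precursor of hyaluronan (2.45 ± 0.20 SE, adjusted p = 0.00045). The call of UGDH held in all 9 leave-out fits, while that of LIPA was lost in 5, that of GPNMB in 6, that of LGALS3 in 7 and that of APOE in 8 of them. Those of NFE2 and PLEK held as well, but the leave-out fits kept the same filter, so that both had to differ in them too. The summed signals of the leukocyte list were higher in the same glands, and their part in these values was not tested.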
